A study of Caenorhabditis elegans with 4 samples.

Results

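The regions described here are the 219 LIN-39 binding peaks that lie on chromosome V, out of 1874 peaks in the combined list of a ChIP-seq experiment on the nematode Caenorhabditis elegans. The members were taken by chromosome alone, with no condition on the strength or recurrence of a peak. The chromosome itself was picked with earlier results of these data known. All 4 samples of the series came from hermaphrodites of strain OP18 at larval stage L2, grown at 20 °C, with the mutation unc-119(ed3) on chromosome III. The strain is listed with 3 outcrosses, and all 4 samples were treated with 2% formaldehyde. All carried the integrated transgene wgIs18, in which unc-119(+) serves as the marker and lin-39::TY1::EGFP::3xFLAG encodes the tagged protein. They comprised 2 precipitates made with antibodies to GFP, replicates 1 and 2, and 2 input DNA samples with the same numbers. The labels give only numbers for the replicates and do not say whether they were separate cultures. Peak lists of replicate 1, of replicate 2 and of the series as a whole were used, and the input samples were not analysed here. The transgene was made by bombardment, the genotype lists no mutation of the endogenous lin-39 gene, and chromatin was taken from whole worms, so the cells in which a site was bound cannot be told from these lists.

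LIN-39 is the Hox transcription factor of the worm's midbody. It is needed for the vulval precursor cells to stay competent and for the fates and migrations of midbody neurons, and it binds DNA together with the TALE homeodomain cofactors CEH-20 (the Pbx homologue) and UNC-62 (the Meis homologue). The autosomes of this nematode have gene-rich centres with little recombination, flanked by repeat-rich arms that recombine more. Chromosome V is known for its large families of chemoreceptor and nuclear hormone receptor genes.

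Coordinates are those of genome build WormBase WS220. No genome or gene annotation of that build was used here, so the peaks are given by position, without sequence or gene names. Each peak carries a p-value column from the authors, read here as a q-value, that is, as adjusted for the number of peaks tested. The basis of this reading is given under the processing of the data, and the control used is not given. A smaller q is called stronger below. Depth is unknown, since read counts are not part of the lists. Peaks of 1 list are not replicates of one another, and no test was made over them. Shares are given with Wilson 95% intervals and medians with 95% order-statistic intervals, which cover counting error only.

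Chromosome V carried 5 peaks that were found in the combined list and again in each of both replicates, and they included the third strongest peak of the whole combined list. A combined peak was counted as found in a replicate when a replicate peak overlapped it by at least 1 bp. The strongest, V:4506679-4508544, spanned 1866 bp and had q = 1.07e-34 in the combined list. In replicate 1 it contained separate peaks, V:4506696-4507412 with q = 0.000997 and V:4507746-4508484 with q = 7.50e-17, the latter of rank 7 among all 239 peaks of that replicate. In replicate 2 it held V:4507752-4508488 with q = 1.48e-11, rank 4 among 83 peaks. The strong peak of both replicates thus lay in the right part of the interval, between nearly the same ends, whereas the left part was listed in replicate 1 only and close to the largest q-value of that list.

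The second strongest, V:9219008-9219540 (533 bp), had a combined q of 1.33e-15, with 2.85e-07 in replicate 1 and 8.92e-06 in replicate 2. Its replicate peaks, V:9219032-9219324 and V:9219036-9219304, differed from each other at their ends by less than from the combined interval, which ran on to the right for a further 216 bp past the end in replicate 1 and 236 bp past that in replicate 2. The third, V:9730770-9731580 (811 bp), had q = 3.55e-13 in the combined list. Its q-values in replicates 1 and 2 were 3.96e-06 and 1.10e-05. Here the replicate 1 peak covered 86.9% of the combined interval and the replicate 2 peak 96.2%.

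The other two peaks of this kind were weaker and narrower. V:1228809-1229129 (321 bp), rank 4 on the chromosome, had a combined q of 8.89e-09, with 0.000449 in replicate 1 and 0.000253 in replicate 2. V:13016762-13017110 (349 bp) ranked only 21 on chromosome V, with q = 5.56e-07, 0.000491 and 0.000205 in the same order. All 5 had a smaller q in the combined list than in either replicate. Their combined -log10 q was 0.894 to 1.28 times the sum of both replicates' values. This range describes how the lists relate and is no measure of binding, because all 3 lists come from 1 series.

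**Figure D1:**
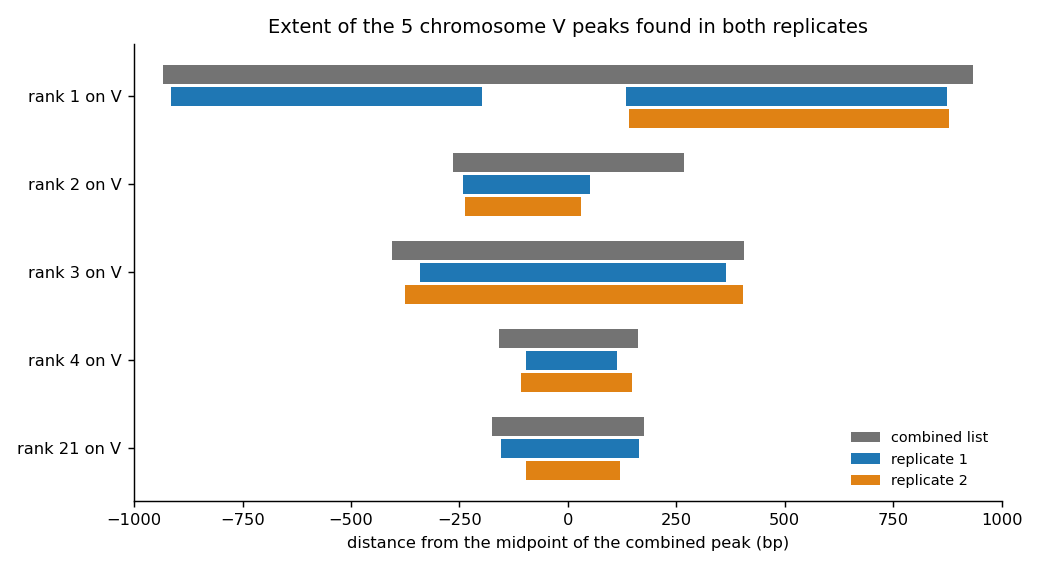
Horizontal bars show the extent of the 5 chromosome V peaks found in both replicates, in bp from the midpoint of the combined peak, for the combined list (grey), replicate 1 (blue) and replicate 2 (orange); rows are ordered by rank on chromosome V. In the strongest peak, replicate 1 has 2 separate peaks and replicate 2 has only the right one.

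The remaining peaks among the 10 strongest of the chromosome were each found in a single replicate. V:14055076-14055331 (256 bp, q = 1.89e-08), V:11308871-11309166 (296 bp, q = 2.00e-08) and V:5582877-5583242 (366 bp, q = 2.94e-08) were in replicate 1. So were V:19522681-19523106 (426 bp, q = 3.47e-08) and V:1151275-1152020 (746 bp, q = 7.25e-08). V:6879352-6879913 (562 bp, q = 2.86e-08) was the only one of the 10 that replicate 2 listed and replicate 1 did not. Strength on this chromosome was concentrated in a few peaks: -log10 q was 34.0 for the first, 14.9 and 12.4 for the next and 8.05 for the fourth, whereas the median over all 219 was 3.73 (3.55 to 3.88). Each other chromosome also had a maximum far above its median, from 15.9 against 3.92 on II to 165 against 3.77 on III. On V, peaks with q below 1e-05 numbered 36 (16.4%, 12.1 to 21.9%), against 23.9% of all combined peaks and 20.3% (17.2 to 23.9%) of those on II, III and IV together.

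In total 31 of the 219 peaks were found in at least 1 replicate (14.2%, 10.2 to 19.4%), and the share over all chromosomes was 12.4%. Replicate 1 listed 28 of them (12.8%, 9.0 to 17.9%; all combined peaks 11.3%) and replicate 2 listed 8 (3.65%, 1.86 to 7.04%; all combined peaks 4.32%). The 5 found in both made up 2.28% (0.979 to 5.23%), against 3.15% of all combined peaks. Each of these shares was near the background over all chromosomes, which lay within its interval. Replicate 1 decided most of the recurrence: with replicate 2 alone the share in at least 1 replicate was 3.65%, and with replicate 1 alone it was 12.8%. A peak missing from a list is not shown to be unbound in that sample. The authors' peak numbers also have gaps, with 46 of 1920 numbers absent from the combined list, 5 of 244 from replicate 1 and 1 of 84 from replicate 2, and why those numbers are missing is not given in the files.

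Recurrence followed strength. All 10 peaks of ranks 1 to 10 on chromosome V were in at least 1 replicate (72.2 to 100%). Of ranks 11 to 30, 13 of 20 were (65.0%, 43.3 to 81.9%), and of ranks 31 to 100, 4 of 70 (5.71%, 2.24 to 13.8%). Among the last 119 peaks, 4 were (3.36%, 1.31 to 8.32%). At q below 1e-05, 23 of 36 peaks recurred (63.9%, 47.6 to 77.5%). Over all combined peaks of any strength the share was 12.4%. It was not worked out by strength over all chromosomes, so the trend is not shown to be particular to V. The combined and replicate 1 values of -log10 q had a Spearman correlation of 0.570 over the 28 peaks found in replicate 1, a description across peaks of lists that come from the same series. Higher combined scores of recurring peaks are therefore not independent evidence.

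From the side of the replicates, 29 of the 32 replicate 1 peaks on chromosome V were in the combined list (all chromosomes 89.1%), and so were all 8 replicate 2 peaks (all chromosomes 98.8%). Replicate 2 shared 5 of its 8 peaks with replicate 1 (all chromosomes 72.3%), and the same 5 overlaps took up 5 of the 32 replicate 1 peaks (all chromosomes 25.1%). Replicate peaks mostly lay inside the combined ones. In replicate 1, 22 of the 29 overlapping peaks lay wholly within the combined interval, which they covered by a median of 69.3%, and their midpoints lay a median of 24 bp from its midpoint. In replicate 2, 6 of 8 lay within it, with a median coverage of 83.1% and a median distance of 12.5 bp. The largest distances, 557.5 bp in replicate 1 and 508.5 bp in replicate 2, both belonged to the strongest peak.

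The 3 replicate 1 peaks missing from the combined list were V:5684571-5684885 (315 bp, q = 0.000573), V:15636201-15636278 (78 bp, q = 0.000515) and V:16173328-16173330 (3 bp, q = 0.000200). None was in replicate 2. They were far from any combined peak, with 63618, 208233 and 152584 bp to the nearest one. The first of them was wider than 278.5 bp, the upper quartile of the chromosome's combined peaks.

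Along the chromosome the peaks were spread from V:44173-44291, the first, to V:20879875-20880021, the last, whose end was taken as the end of the span. Density was 10.5 peaks per Mb, compared with 11.2 on IV, 12.2 on III, 12.6 on II, 17.8 on X and 52.4 on I. The centre, the middle 50% of the span, held 132 peaks (60.3%, 53.7 to 66.5%). The same share was 52.8% over all combined peaks and 59.0% (54.9 to 63.0%) on II, III and IV together, close to that on V. The left arm held 40, the left part of the centre 55, the right part of the centre 77 and the right arm 47, each over 25% of the span. The right part of the centre was thus the fullest of the 4. The 20 whole 1 Mb bins held a median of 10.5 peaks, from 4 in V:2000001-3000000 to 20 in V:11000001-12000000, and the bins next to the fullest one had 12 and 13.

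Between centre and arms the intervals overlapped in width, strength and recurrence. Median width was 163 bp in the centre (108 to 185) and 124 bp in the arms (80 to 166), and median -log10 q was 3.83 (3.55 to 4.04) and 3.70 (3.41 to 3.86). In the centre 19 of 132 peaks recurred in at least 1 replicate (14.4%, 9.41 to 21.4%), and in the arms 12 of 87 (13.8%, 8.07 to 22.6%). The central share was 62.5% in replicate 1 (20 of 32, 45.3 to 77.1%) and 50.0% in replicate 2 (4 of 8, 21.5 to 78.5%).

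The arms themselves were less alike. The left arm held the strongest and the fourth strongest peak, and 8 of its 40 peaks recurred (20.0%, 10.5 to 34.8%). In the right arm 4 of 47 did (8.51%, 3.36 to 19.9%), none of them in both replicates, and the strongest was V:19522681-19523106. The right arm also had narrow peaks, with a median of 82 bp (42 to 134), compared with 167 bp (119 to 256) in the left arm. The intervals of recurrence overlapped, and so did those of the median widths, between 119 and 134 bp.

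**Figure D2:**
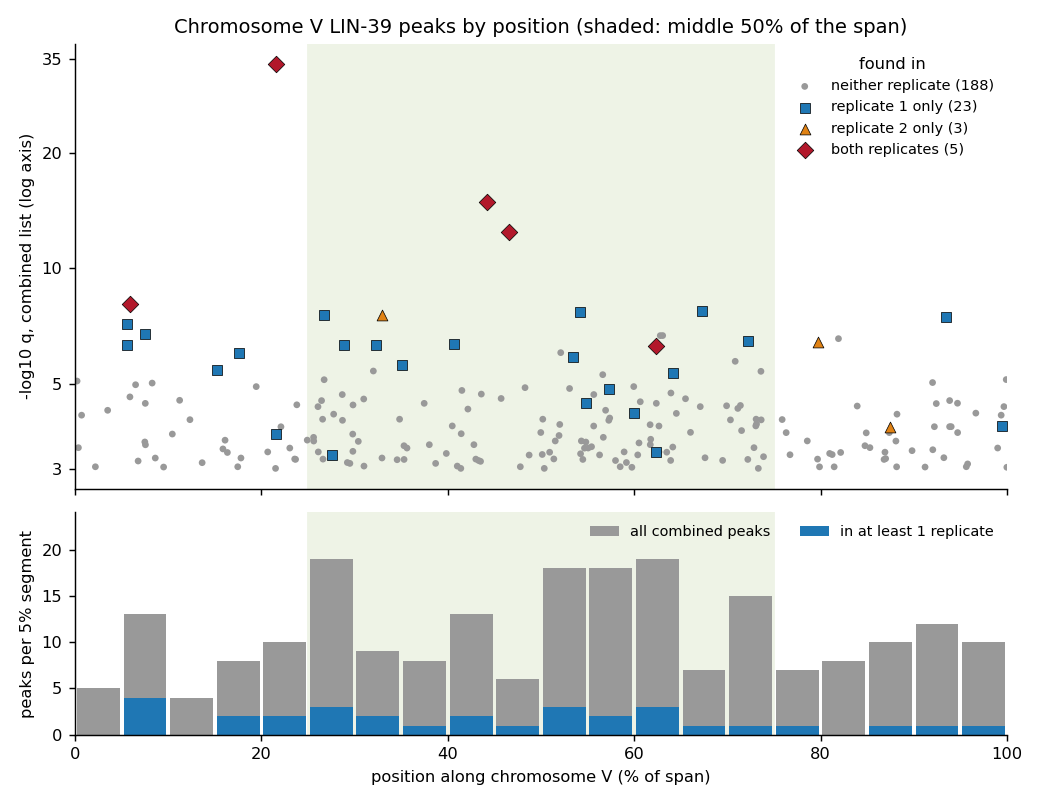
Upper panel, each of the 219 chromosome V peaks by position in percent of the span and by -log10 q in the combined list (log axis), with symbols for the replicates it was found in; lower panel, number of peaks per 5% segment, with those found in at least 1 replicate in blue, and the middle 50% shaded in both. Segments hold 4 to 19 peaks. The 3 segments just right of the midpoint hold 18, 18 and 19, and the segment from 25 to 30% of the span also holds 19.

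Neighbouring peaks were mostly far apart. The median gap from the end of one peak to the start of the next was 58766 bp (51115 to 71479), with an interquartile range of 22136 to 134374 bp. It was 56976 bp on IV, 50369 bp on III, 48310 bp on II, 34575 bp on X and 8671 bp on I. Within the chromosome the median gap was 55068 bp in the centre, 109718 bp in the left arm and 55364 bp in the right arm. The right arm was also nearer the centre in the lower quartile, at 22347 bp against 18720 bp in the centre and 31098 bp in the left arm. Among wide gaps the right arm differed more from the centre. Its upper quartile was 169318 bp, against 109049 bp in the centre and 214542 bp in the left arm. Gaps over 300 kb numbered 5 of 46 in the right arm, 4 of 39 in the left arm and 4 of 131 in the centre. The widest gaps without a combined peak lay between 20184958 and 20674148 (489189 bp), between 729455 and 1151275 (421819 bp) and between 15427967 and 15844606 (416638 bp). The last of these contained V:15636201-15636278, one of the replicate 1 peaks missing from the combined list. In all, 14 of 218 gaps exceeded 300 kb.

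No region of the chromosome held 3 or more peaks when peaks within 2 kb were joined. Joining left 210 regions, of which 9 were pairs. Their 18 peaks made up 8.22% of the chromosome's peaks (5.26 to 12.6%), against 21.7% of all combined peaks and 12.4% (9.92 to 15.4%) of those on II, III and IV together. The share on IV alone was 7.18% (4.32 to 11.7%). On IV these were 14 peaks with 7 gaps within 2 kb, so that chromosome also had pairs and no larger region. The share over all chromosomes includes chromosome I, where 35.2% of peaks had such a neighbour. The tightest pair, V:11959653-11959864 and V:11960151-11960321, was separated by 286 bp. The next, V:1228187-1228515 and V:1228809-1229129, was separated by 293 bp, and its right member was the fourth strongest peak, found in both replicates. Another peak found in both replicates, V:13016762-13017110, had V:13017991-13018137 as its neighbour at 880 bp, and replicate 1 listed each of them separately. Of the 9 pairs, 6 had at least 1 member in a replicate. Counted by peak, 7 of the 18 were (38.9%, 20.3 to 61.4%), against 14.2% of all peaks on V and 12.4% of all combined peaks. The paired peaks had a median -log10 q of 4.48 (3.86 to 5.12), against 3.73 (3.55 to 3.88) over all peaks on V, and the intervals met between 3.86 and 3.88. Their median width was 239 bp (109 to 321), against 147 bp (109 to 168) over all peaks on V. Recurrence of peaks within 2 kb of another was not worked out over all chromosomes. The strongest peak of the chromosome stood outside this distance: its nearest neighbours were V:4499014-4499813 (800 bp, q = 0.000202), in replicate 1 too, at 6865 bp to the left, and a peak 103966 bp to the right.

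**Figure D3:**
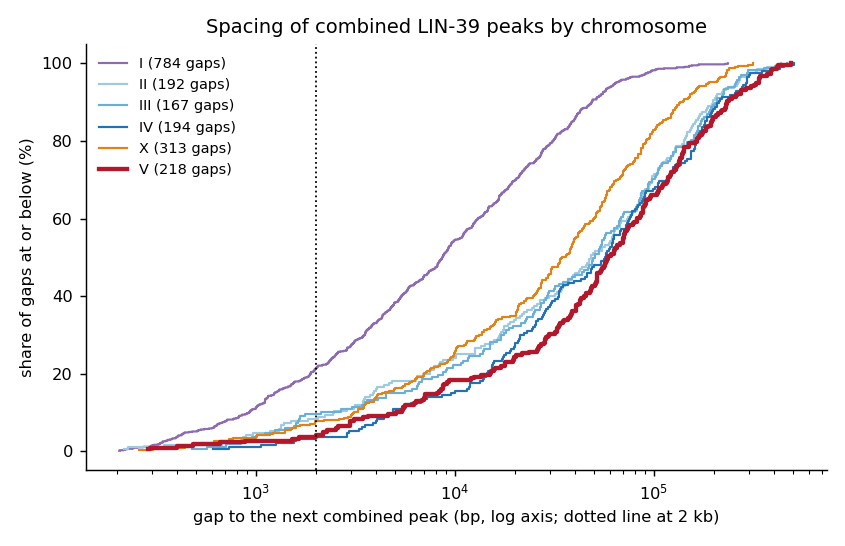
Cumulative share of gaps between neighbouring combined peaks (vertical axis, percent) at or below a given size (horizontal axis, bp, log scale), for each of 6 chromosomes; chromosome V is the thick red line and the dotted line marks 2 kb. On V 4.13% of the 218 gaps are within 2 kb and 66.1% within 100 kb, and its line runs close to that of IV.

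The peaks of chromosome V were narrow. Their median width was 147 bp (109 to 168), with an interquartile range of 44.5 to 278.5 bp, and they covered 42468 bp, or 0.203% of the span. Medians were 165 bp (141 to 198) on IV, 215.5 bp (195 to 273) on III, 222 bp (189 to 252) on II, 223 bp (199 to 241) on I and 224.5 bp (200 to 266) on X. The interval on V overlapped that of IV and lay below those of the other 4 chromosomes. With peaks under 50 bp left out, the median was 198 bp (169 to 244) on V, 252 bp (235 to 275) on II, III and IV together, 255 bp (238 to 275) on I and 275 bp (241 to 309) on X, and the interval on V overlapped each of the others.

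Peaks under 50 bp numbered 60 on chromosome V (27.4%, 21.9 to 33.7%), whereas they made up 16.7% of all combined peaks. The share was 19.1% (16 to 22.5%) on II, III and IV together, 15.0% (11.4 to 19.3%) on X and 12.7% (10.6 to 15.3%) on I. Against II, III and IV the intervals met between 21.9 and 22.5%. Below 20 bp the share was 12.8% (9.0 to 17.9%) on V, 11.2% (8.80 to 14%) on II, III and IV, 9.55% (6.77 to 13.3%) on X and 6.88% (5.31 to 8.87%) on I, and the interval on V overlapped those of all but I. Below 100 bp it was 40.6% (34.3 to 47.3%) on V, 29.5% (25.9 to 33.4%) on II, III and IV, 22.0% (17.7 to 26.9%) on X and 22.4% (19.6 to 25.5%) on I, and the interval on V lay above the other 3. On II and IV alone it was 30.6% (24.5 to 37.4%) and 33.3% (27.1 to 40.2%), which both overlapped that on V. Below 50 bp the intervals of II (14.7 to 25.9%), III (12.3 to 23.7%) and IV (15.0 to 26.2%) each overlapped that on V. Below 20 bp the share on II alone, 13.5%, was above that on V. In replicate 1, 2 of the 32 peaks on V were under 50 bp (6.25%, 1.73 to 20.1%), the lowest of the 6 shares. The others ran from 7.89% on I to 20.7% on II. Replicate 2 had 0 of 8 on V (0 to 32.4%). The high share under 50 bp was thus seen in the combined list only. Median width on V was still the lowest of the 6 chromosomes in both replicates, at 233 and 262.5 bp. No test of the differences was made, and how the peak caller set the ends of a peak is not given in the sources used here.

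**Figure D4:**
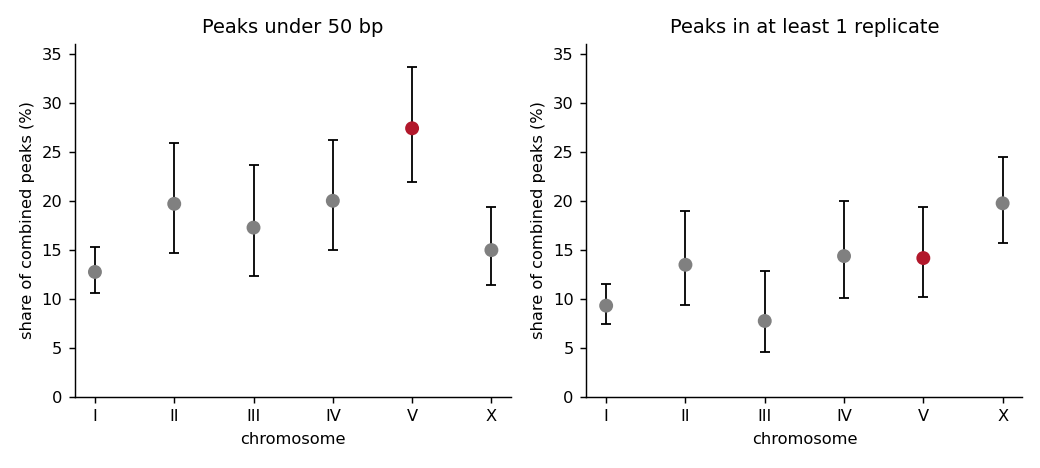
Share of combined peaks under 50 bp (left) and share found in at least 1 replicate (right), in percent, for each of 6 chromosomes; points are shares, bars are Wilson 95% intervals and chromosome V is red. On V 27.4% of peaks were under 50 bp, the highest of the 6 shares, while its recurrence of 14.2% lay between those of the other chromosomes.

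Recurrence was more frequent in wider classes, and over all combined peaks it was 12.4%. A wider interval is also a larger target for an overlap of 1 bp, and the part this played was not tested. Of the 60 peaks under 50 bp, 3 were in a replicate (5.0%, 1.71 to 13.7%). The share was 7.32% for 50 to under 200 bp (6 of 82, 3.40 to 15.1%), 24.6% for 200 to under 400 bp (14 of 57, 15.2 to 37.1%) and 40% for 400 bp or more (8 of 20, 21.9 to 61.3%). The q-values of the narrowest class were not weaker than those of the rest in the median. Median -log10 q was 3.73 both under 50 bp (3.41 to 3.88) and at 50 bp or more (3.54 to 4.07). The latter pooled unlike classes, with 3.45 for 50 to under 200 bp and 4.18 for 200 to under 400 bp. The narrow class had 3 of 60 peaks with q below 1e-05 (5.0%, 1.71 to 13.7%) and the wider class 33 of 159 (20.8%, 15.2 to 27.7%). Within the wider class these were 7 of 82 for 50 to under 200 bp (8.54%). They were 18 of 57 for 200 to under 400 bp (31.6%) and 8 of 20 for 400 bp or more (40%). The classes with high recurrence were thus also those with more strong peaks, and width was not tested apart from strength. Across all 219 peaks width and -log10 q had a Spearman correlation of 0.289, given as a description over peaks of 1 list.

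Wide peaks were not all strong. After the strongest peak, the widest of the chromosome was V:15426658-15427967, which spanned 1310 bp with q = 0.000592 (rank 172 on the chromosome). It was followed by V:6227162-6228087, which spanned 926 bp with q = 3.97e-05. Neither was in a replicate. The next in width, V:15071002-15071868 (867 bp, q = 3.63e-07), was in replicate 1, and the one after it was V:9730770-9731580, found in both replicates. At the other end, V:13084284-13084285 was 2 bp wide (q = 0.000477), and V:5449713-5449715, V:12889336-12889338 and V:5442604-5442606 were 3 bp each, the last with q = 4.40e-05. None of these 4 was in a replicate.

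**Figure D5:**
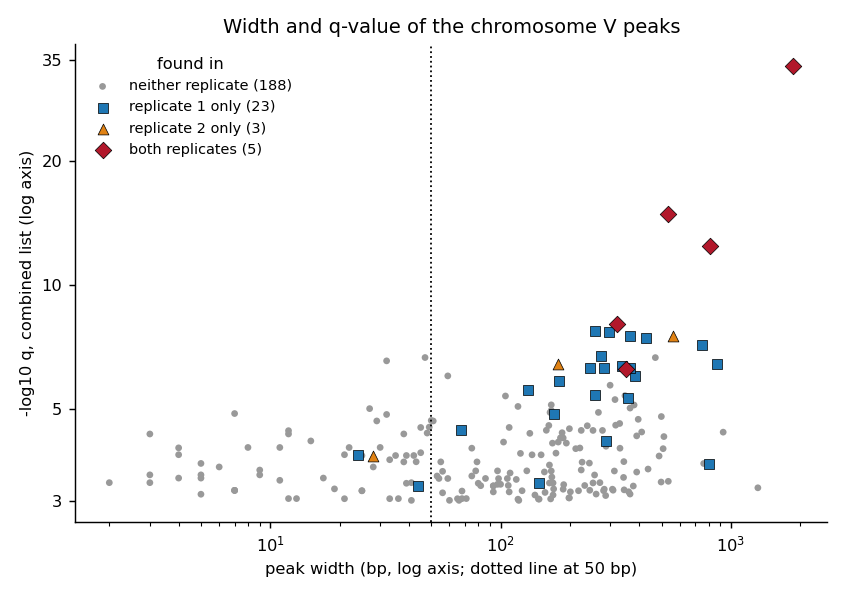
Width (bp, log axis) against -log10 q in the combined list (log axis) for the 219 chromosome V peaks, with symbols for the replicates each was found in and a dotted line at 50 bp. All 5 peaks found in both replicates are at least 321 bp wide, and 3 of the 60 peaks left of the line were found in a replicate.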

How the data were processed

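Peaks were called with PeakSeq on build WormBase WS220, per the file headers and source fields. Not given in the sources used here are the aligner, the caller's version, threshold and control, and any pooling behind the combined list. Each deposited peak has a first and last position and a p-value column, which was read as q-values: sorted by peak number, values decreased from one peak to the next at 886 of 1873 combined steps, but products of value and number at 0, likewise in both replicates (relative tolerance 1e-09). All were below 0.001. Depth is unknown.

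From these lists, width, gaps, position and overlap were computed with Python 3.11.15, numpy 2.4.6, pandas 2.3.3 and scipy 1.17.1, and plotted with matplotlib 3.10.9. Overlap was tested on simulated data and recovered in 20 of 20 runs of 200 peaks. The simulated peaks lay too far apart for any to be joined at 2 kb, so joining of close peaks was not tested. The check of central position repeated the same formula and tests only that it was applied. The span ran from 1 to the largest coordinate on a chromosome in the 3 lists, and positions are of midpoints. No peak was left out.

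The chromosome, measures and alternatives were chosen with earlier results of these data known. Regions named were the 10 strongest combined peaks, those in both replicates, the 3 widest and narrowest (with ties), joined regions of 3 or more peaks, the 3 widest gaps, replicate peaks absent from the combined list, and the first and last peak. Pairs, neighbours of the strongest peak, extreme bins, the width and rank classes and the regions under other observations were chosen after their values were seen.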

Additional observations from a re-analysis of the deposited data

How the results depend on the processing

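No paired analysis was possible because only the ChIP replicates had lists and no result comes from a test. The central share stayed between 60 and 64.8% under stricter q-values, without peaks under 50 bp, with peaks joined at 2 kb and with another start of the span. Over a narrower central window, from 33.3 to 66.7% of the span, it was 39.3%. At q below 1e-04 and 1e-05, fewer peaks were left by construction: density was 4.36 and 1.72 peaks per Mb, median spacing 171248 and 463031 bp and median width 212 and 317.5 bp. Recurrence was then 26.4 and 58.3% in replicate 1, 7.69 and 19.4% in replicate 2, 5.49 and 13.9% in both, and 28.6 and 63.9% in at least 1. The same shares over all combined peaks at these thresholds were not worked out. Without peaks under 50 bp, median spacing was 76932.5 bp and median width 198 bp. Leaving out 1 replicate gave 3.65 to 12.8% in at least 1. Asking for an overlap of 50% of the narrower peak changed no count of recurring peaks, and allowing a distance of 1 kb raised that in at least 1 replicate from 31 to 34. The missing read counts limit every share, since a peak absent from a list may lie just under the threshold.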

Other observations

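Several strong chromosome V peaks were in neither replicate, among them 13 of the 36 with q below 1e-05. The matching count for strong peaks on all chromosomes was not worked out, so this is not shown to be particular to V. Over all combined peaks of any strength, 12.4% were in at least 1 replicate. The strongest of the 13, V:13166797-13166843, was 47 bp wide with q = 2.12e-07, rank 12 on the chromosome. It was followed by V:13112815-13113284 (470 bp, q = 2.13e-07), 53512 bp to its left, and by V:17106589-17106620 (32 bp, q = 2.81e-07). The reverse also occurred. V:4499014-4499813 ranked 116 on the chromosome, and V:5748504-5748547 (44 bp) ranked 168 with q = 0.000543, yet replicate 1 listed both.

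Near the right end of the chromosome, the combined peak V:20776575-20776598 (24 bp, q = 0.000131) was met in replicate 1 by a peak of 2 bp, V:20776576-20776577 (q = 0.000571). The 28 bp peak V:18254885-18254912 (q = 0.000137) was met in replicate 2 by the wider V:18254829-18254958 (130 bp, q = 0.000546), which ran past it on both sides. In replicate 1, 25 of the 29 overlapping peaks were narrower than their combined peak, and in replicate 2, 6 of 8.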
